A study of Mus musculus with 13 samples.

Results

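A set of 9 genes of calcium buffering and calcium extrusion, out of 48709 gene rows counted, was examined in spinal motoneurons of mutant SOD1 mice. They were taken by symbol: the cytosolic buffers Pvalb, Calb1 and Calb2, the endoplasmic reticulum pump Atp2a2, the plasma membrane pumps Atp2b1, Atp2b2 and Atp2b3, and the sodium-calcium exchangers Slc8a1 and Slc8a2. Each symbol matched 1 row, so the set holds 3 buffers, 1 store pump, 3 membrane pumps and 2 exchangers. Their family members Atp2a1, Atp2a3, Atp2b4 and Slc8a3 are given beside them.

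Every mouse carried the SOD1-G93A transgene, a mutant human SOD1 used as a model of amyotrophic lateral sclerosis, so no healthy mouse enters any comparison. The AAV-miR SOD1 group (n = 4) received, on postnatal day 2 and into the cerebral ventricles, an adeno-associated virus (AAV) that makes astrocytes express an artificial microRNA against human SOD1. A control AAV was given in the same way to the AAV-miR ctrl group (n = 5). Littermates that received no injection form the non-injected group (n = 4). All mice were 65 days old when their lumbar cord was frozen inside the vertebrae, and 500 motoneurons per mouse were laser-captured from cresyl violet-stained sections and pooled into 1 library. By the study's design the microRNA is made in astrocytes, so the libraries measure cells other than those meant to carry it.

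Calcium that enters a neuron is first bound by soluble buffers and then removed. Parvalbumin (Pvalb), calbindin (Calb1) and calretinin (Calb2) are EF-hand proteins that bind it in the cytosol. The SERCA pumps (Atp2a genes) move it into the endoplasmic reticulum, while the PMCA pumps (Atp2b genes) and the sodium-calcium exchangers (Slc8a genes) move it out of the cell. Spinal motoneurons are known for holding little parvalbumin and calbindin, and this has long been discussed with regard to their vulnerability in amyotrophic lateral sclerosis. Parvalbumin is also an abundant protein of fast skeletal muscle, where Atp2a1 is the main calcium pump, and Atp2a2 is the pump of slow skeletal and cardiac muscle as well as of neurons.

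The libraries held 13.9 to 37.4 megacounts in genes, and the replicate numbers 5 and 6, which occur only in the control groups, were the 4 deepest. The column headers of 2 of the 13 count tables, replicate 3 of AAV-miR ctrl and replicate 3 of non-injected, name each other's sample; the titles were followed, and results that move with an exchange or removal of these libraries are given with it. Levels are in CPM, the reads of a gene per megacount of the library size after TMM scaling. The 7 motoneuron markers (Chat, Slc18a3, Slc5a7, Isl1, Mnx1, Prph, Nefh) were counted in every library. Their summed level was 1376 to 2498 CPM in AAV-miR SOD1, 2000 to 4537 in AAV-miR ctrl and 2221 to 5269 in non-injected. The 5 skeletal muscle markers (Acta1, Ckm, Myh4, Mylpf, Tnnt3) were also counted in every library, with a summed level of 5984 to 95439 CPM. Interneuron markers summed to 14.6 to 55.2 CPM over 8 genes, of which Gad2, Pax2 and Lhx5 were at 0 in some libraries. Oligodendrocyte markers summed to 998 to 4300 CPM over 5 genes, and astrocyte markers to 434 to 988 CPM over 6. Microglia markers summed to 104 to 594 CPM over 6 genes, and bone markers to 1507 to 11951 CPM over 3. Erythroid markers summed to 20633 to 46068 CPM in AAV-miR SOD1 and to 3470 to 27756 CPM in the control libraries. No row among the counted genes stands for the human transgene, so the counts give no check of its silencing.

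Per kilobase of exon, the levels of the 13 genes spanned several orders of magnitude. Pvalb had the highest median level, 2865 CPM per kb, next to Atp2a1 at 2388 CPM per kb, and the ranges of both overlapped across libraries. Calb2 followed with 75.3 CPM per kb and a range of 24.7 to 160, overlapping Atp2a2 with 42.0 CPM per kb and a range of 23.8 to 110. Atp2a3, Atp2b2 and Atp2b1 came next at 13.1, 11.4 and 8.26 CPM per kb, again with overlapping ranges. Their order depended on the length used: per kilobase of the longest transcript, Atp2b1 (17.6) stood above Atp2b2 (16.1), which stood above Atp2a3. Below them lay Slc8a3 at 4.19, Atp2b4 at 1.78, Atp2b3 at 1.19 and Calb1 at 0.762 CPM per kb. Slc8a1 reached 0.0711 CPM per kb, and the median library had no count for Slc8a2.

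**Figure D1:**
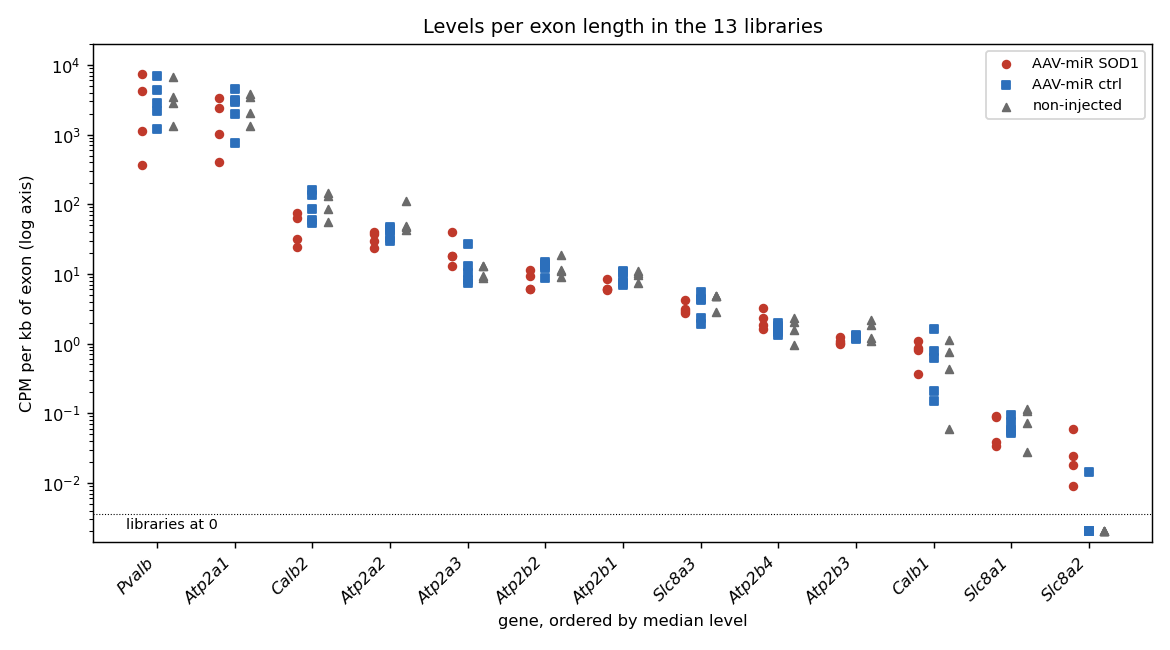
Level of each gene in CPM per kilobase of exon (log axis) in the 13 libraries, genes ordered by their median; circles are AAV-miR SOD1, squares AAV-miR ctrl and triangles non-injected, and libraries at 0 are drawn under the dotted line. Pvalb and Atp2a1 lie over an order of magnitude above Calb2 and Atp2a2, and Slc8a1 and Slc8a2 lie lowest.

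None of the 8 genes that passed the low-count filter met an adjusted p of 0.05 in any of the 4 comparisons by edgeR's quasi-likelihood test with Benjamini-Hochberg adjustment over 17403 genes, where 0% of all genes did. DESeq2 and limma-voom with quality weights, the other tools run, also called none of the 8, although in the comparison with both control groups DESeq2 called 1425 genes overall and limma-voom 1461. At an unadjusted p under 0.05, Calb2 and Atp2b2 were lower in AAV-miR SOD1 than in AAV-miR ctrl (2 of 8, against 8.54% of all genes lower at that p). Calb2, Atp2b1, Atp2b2 and Atp2a2 were lower than in non-injected (4 of 8, against 11.5%) and lower than in both control groups together (4 of 8, against 12.1%), and no gene of the 8 was higher at that p, beside 5.99%, 9.36% and 10.2% of all genes in the same order. Between AAV-miR ctrl and non-injected only Atp2a2 had an unadjusted p under 0.05 (1 of 8, lower in AAV-miR ctrl, against 2.24% of all genes lower and 1.38% higher). These counts depended on single libraries. The 4 found against both control groups became 0 without AAV-miR SOD1 replicate 1 and 0 without replicate 3 of that group, and the 4 found against non-injected became 1 when the libraries with disagreeing headers were exchanged and 1 when both were left out.

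The median log2 fold change of the 8 genes in AAV-miR SOD1 relative to both control groups was -0.42, beside -0.06 over all genes tested. Against AAV-miR ctrl alone it was -0.23 beside -0.04, and against non-injected alone -0.54 beside -0.09. The fold change lay below 0 for 7 of 8 genes in each of these comparisons, where 53.7% of all genes did against AAV-miR ctrl, 55.1% against non-injected and 54.2% against both; Calb1 was the exception each time. Between AAV-miR ctrl and non-injected the median was -0.09 beside -0.01, with 7 of 8 below 0 beside 52% of all genes. The comparisons against the 2 control groups share the AAV-miR SOD1 libraries, so they do not count as separate evidence.

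**Figure D2:**
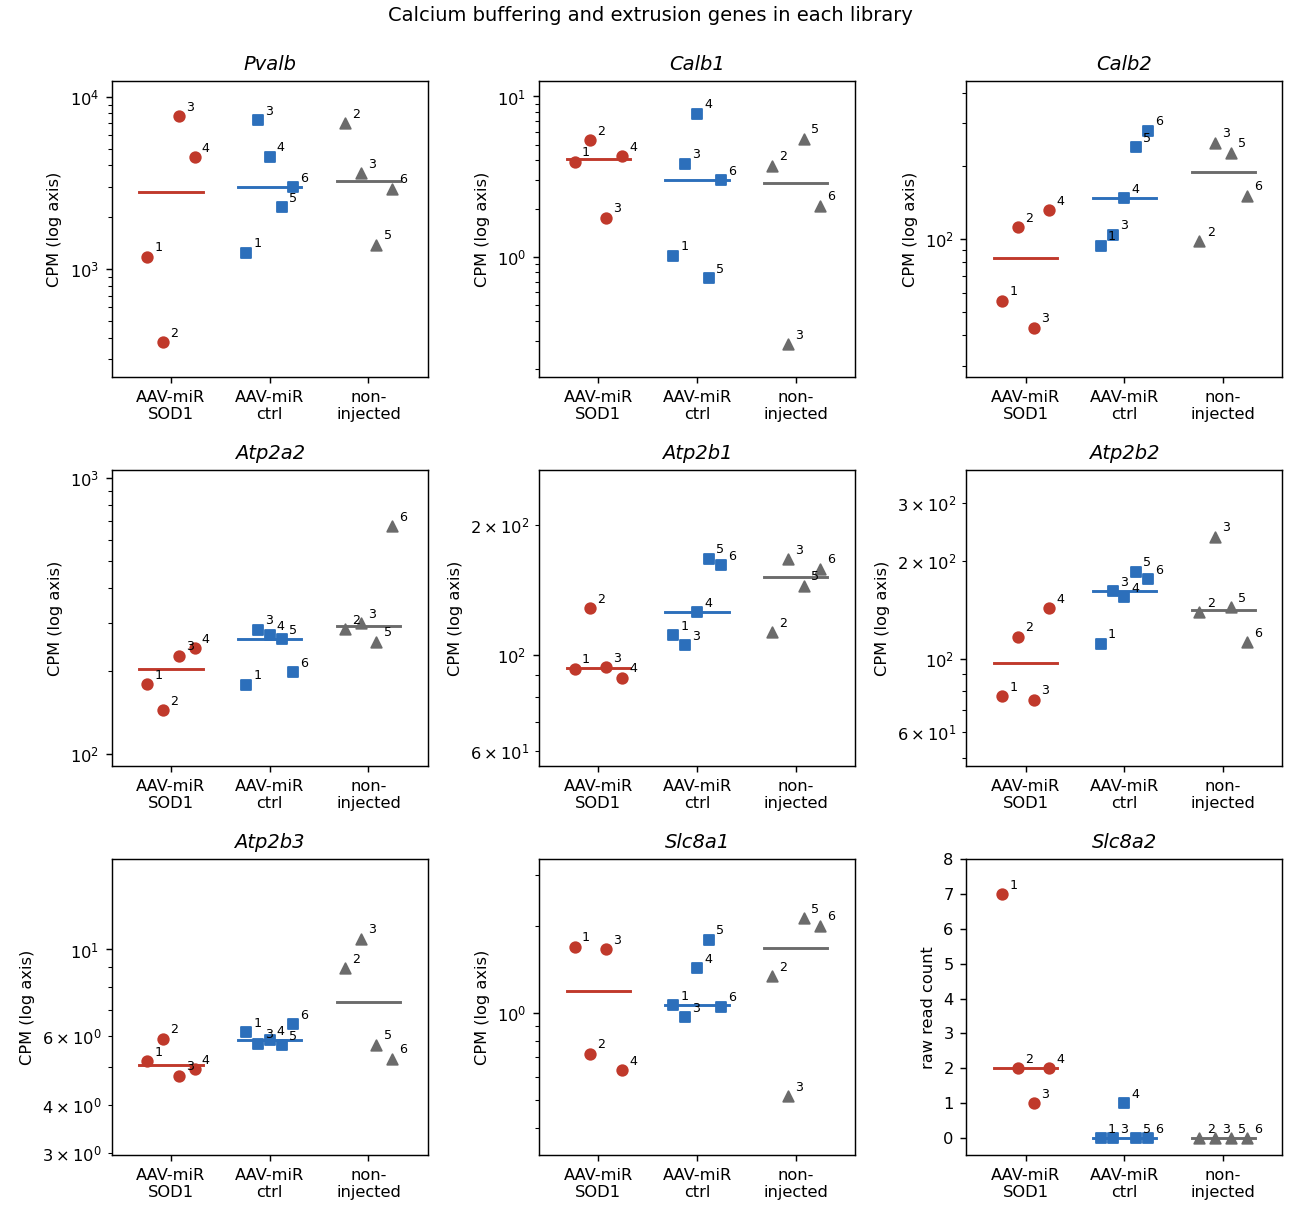
Level of each of the 9 genes in every library, in CPM on a log axis (raw counts on a linear axis for Slc8a2); numbers are replicate numbers and bars are group medians. Pvalb varies 20.4-fold between libraries of all groups, Calb2, Atp2b1 and Atp2b2 have lower medians in AAV-miR SOD1, and the non-injected replicate 6 stands alone for Atp2a2.

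Pvalb (ENSMUSG00000005716, chr15:78191114-78206400, minus strand, GRCm38) encodes parvalbumin, the fast cytosolic buffer. Its level was 1182, 378, 7705 and 4440 CPM in AAV-miR SOD1 replicates 1 to 4. AAV-miR ctrl replicates 1, 3, 4, 5 and 6 held 1245, 7293, 4474, 2288 and 2983 CPM, and non-injected replicates 2, 3, 5 and 6 held 7033, 3595, 1386 and 2933. The highest and the lowest library both belonged to AAV-miR SOD1, and the groups overlapped. The log2 fold change was -0.11 against both control groups (SE 0.66, edgeR adjusted p = 0.946), and its sign changed when single libraries were left out. The error was larger than the difference itself.

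The Pvalb level followed the skeletal muscle markers from library to library. Pvalb ranged 20.4-fold over the 13 libraries, while the amount of Pvalb per 1000 CPM of summed muscle markers stayed between 44.3 and 90.0 CPM, a 2.03-fold range. On the log2 scale, Pearson's r between Pvalb and the muscle sum was 0.97 (n = 13, two-sided permutation p = 1e-05, the smallest 100000 permutations can give, 0.00016 after adjustment over 16 relations), and Spearman's rho was 0.95 (permutation p = 2e-05, adjusted 0.00032). It was 0.94 without the 2 libraries farthest from the median muscle level, 0.99 within the 9 libraries numbered 1 to 4, and 0.97 around the group means. Pvalb and the motoneuron markers gave r = -0.13 (adjusted permutation p = 0.98) and rho = -0.23 (adjusted permutation p = 0.736). By group, Pvalb per 1000 CPM of muscle markers was 60.6 to 90.0 in AAV-miR SOD1, 54.3 to 76.4 in AAV-miR ctrl and 44.3 to 89.6 in non-injected, so the groups overlapped on this scale as well. Both quantities come from the same libraries and are shares of the same total. Atp2a1, the fast-muscle pump, ranged from 1421 to 15517 CPM and lay between 131 and 238 CPM per 1000 CPM of muscle markers. The part of muscle RNA in the Pvalb level was not tested beyond these values.

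The 2 genes whose profile over the 13 libraries was most like that of Pvalb were found by distance, measured as the root mean square difference of standardised log2 CPM among 17402 other genes. They were Tnni2, the fast skeletal troponin I, with a difference of 0.128, and Mir133a-1hg with 0.134. The nearest of the other members was Atp2a2 with 1.02, at rank 2747.

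Calb1 (ENSMUSG00000028222, chr4:15881264-15908064, plus strand) encodes calbindin-D28k. It was counted in every library, at 5 to 219 reads. AAV-miR SOD1 replicates 1 to 4 held 3.92, 5.33, 1.75 and 4.24 CPM. The AAV-miR ctrl libraries held 1.02, 3.81, 7.80, 0.736 and 3.01 CPM, and the non-injected libraries 3.69, 0.285, 5.47 and 2.09. The lowest value was in non-injected and the highest in AAV-miR ctrl, so AAV-miR SOD1 lay inside the range of the controls. The log2 fold change against both control groups was 0.31 (SE 0.65, edgeR adjusted p = 0.823), smaller than its error. Against AAV-miR ctrl it was 0.23 (SE 0.73), and it turned to -0.10 in the libraries numbered 1 to 4. The nearest profiles, Gm44567 with a root mean square difference of 0.473 and Rassf7 with 0.530, were not close ones beside those of Pvalb.

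Calb2 (ENSMUSG00000003657, chr8:110137502-110168210, minus strand) encodes calretinin, and it was the only buffer with an unadjusted p under 0.05. The AAV-miR SOD1 libraries held 55.6, 112, 43.1 and 131 CPM in replicates 1 to 4. AAV-miR ctrl replicates 1, 3, 4, 5 and 6 held 93.8, 104, 147, 239 and 280 CPM, and non-injected replicates 2, 3, 5 and 6 held 97.9, 249, 227 and 151. Replicates 1 and 3 of AAV-miR SOD1 lay under every control library, and its replicates 2 and 4 lay among the lower control libraries. The mean level was 85.5 ± 42.8 CPM (SD, n = 4) in AAV-miR SOD1 and 173 ± 82.9 CPM (SD, n = 5) in AAV-miR ctrl. Calb2 was 2.07-fold lower in AAV-miR SOD1 than in both control groups (log2 fold change -1.05, SE 0.39, edgeR unadjusted p = 0.0172, adjusted p = 0.141), and 4 of 4 libraries lay below the control median. The fold change was -1.02 against AAV-miR ctrl (SE 0.42, edgeR adjusted p = 0.306) and -1.08 against non-injected (SE 0.44, edgeR adjusted p = 0.186). Between both control groups it was -0.07, and it became 0.48 with the header exchange. Over all alternatives the adjusted p relative to both was at least 0.0651, the DESeq2 value. Relative to both control groups the fold change stayed between -1.34 and -0.77 when any 1 library was left out. In the 9 libraries numbered 1 to 4, Calb2 differed by -0.41 from AAV-miR ctrl (SE 0.44, edgeR adjusted p = 0.906) and by -0.70 from both control groups (SE 0.40, edgeR adjusted p = 0.419).

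The motoneuron markers moved with Calb2. All 7 had an unadjusted p under 0.05 for lower levels in AAV-miR SOD1 than in both control groups, beside 12.1% of all genes. None had an adjusted p under 0.05, and the median log2 fold change was -1.10. Against AAV-miR ctrl alone 5 of 7 were lower at that unadjusted p. AAV-miR ctrl replicates 1, 3 and 4 held summed markers of 2000, 2379 and 2272 CPM, and non-injected replicate 2 held 2221. These lay inside the AAV-miR SOD1 range of 1376 to 2498. The control libraries numbered 5 and 6, numbers absent from AAV-miR SOD1, held 3693 to 4537 CPM. Non-injected replicate 3, whose header names another sample, held 5269. Across the 13 libraries the log2 level of Calb2 and of the summed markers had r = 0.93 (permutation p = 3e-05, adjusted 0.00016) and rho = 0.88 (permutation p = 0.00015, adjusted 0.0008). Without the 2 libraries farthest from the median marker level r was 0.91, in the 9 libraries numbered 1 to 4 it was 0.90, and around the group means it was 0.91. Per 100 CPM of motoneuron markers, Calb2 stood at 3.13 to 6.64 CPM in AAV-miR SOD1, 4.37 to 6.94 in AAV-miR ctrl and 4.08 to 5.02 in non-injected. On that scale replicates 1 and 3 of AAV-miR SOD1 lay below every control library, and its replicates 2 and 4 lay inside the control range. By design each library pooled 500 captured motoneurons, and the cause of the lower marker levels was not tested. Erythroid markers moved the other way. At an unadjusted p under 0.05, 5 of 5 were higher in AAV-miR SOD1 than in both control groups, beside 10.2% of all genes. Their median log2 fold change was 1.55, and their part in these results was not tested.

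The genes with a profile most like that of Calb2 were Tceal3, with a root mean square difference of 0.187, and Ccdc184, with 0.191. Among the members, Atp2b2 was nearest to Calb2, with 0.523 and rank 714, and Calb2 was in turn the member nearest to both Atp2b1 and Atp2b2.

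**Figure D3:**
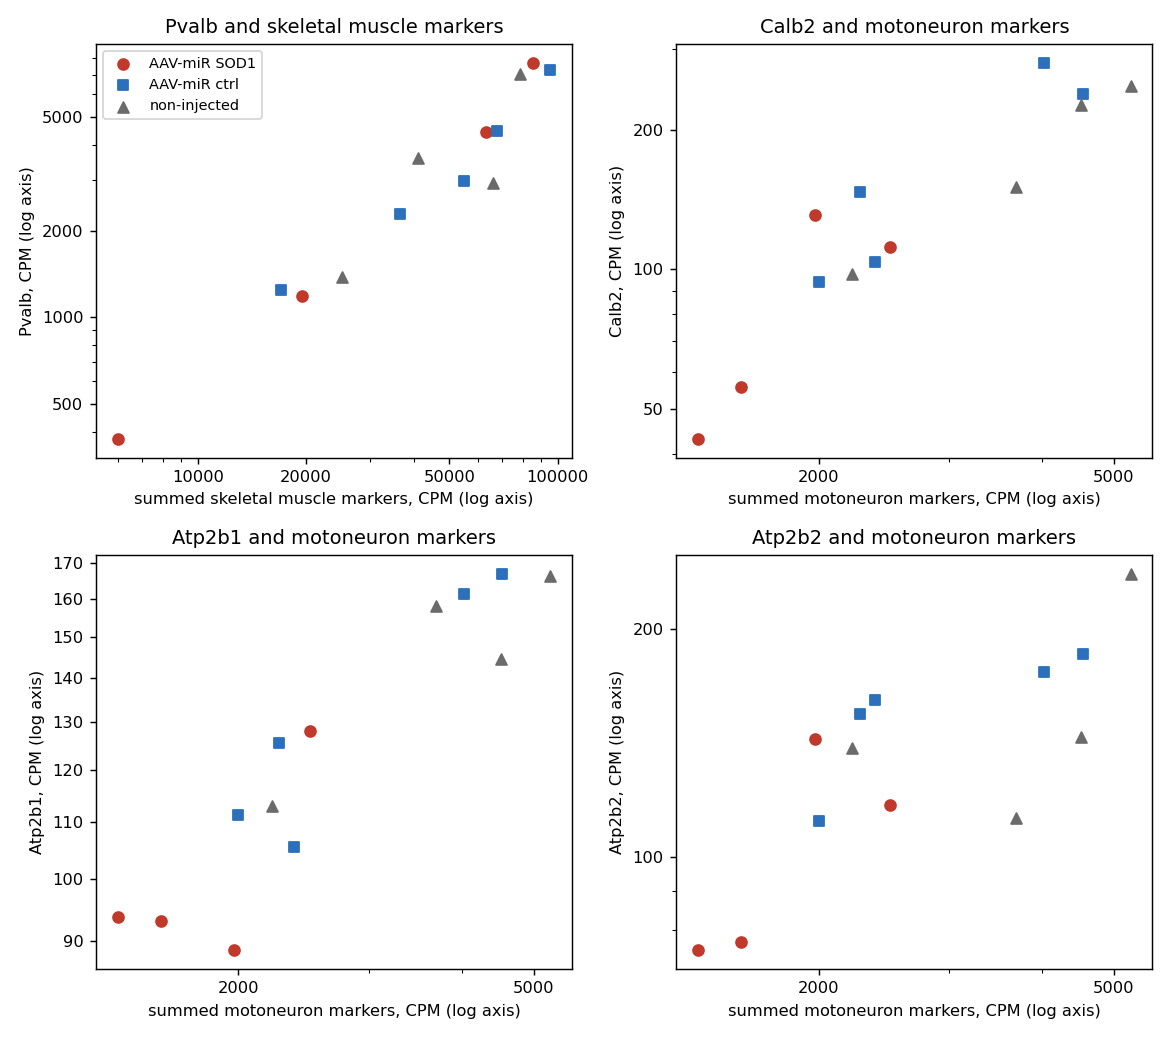
Level of 4 genes against the summed level of a marker list in the same library, both in CPM on log axes, for the 13 libraries (circles AAV-miR SOD1, squares AAV-miR ctrl, triangles non-injected). Pvalb rises with the 5 skeletal muscle markers (r = 0.97), and Calb2 and Atp2b1 rise with the 7 motoneuron markers (r = 0.93 each), more closely than Atp2b2 does (r = 0.77).

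Atp2a2 (ENSMUSG00000029467, chr5:122453513-122502225, minus strand) encodes SERCA2, which fills the endoplasmic reticulum with calcium in neurons. It had 180, 145, 227 and 242 CPM in AAV-miR SOD1 replicates 1 to 4. The AAV-miR ctrl libraries held 178, 283, 271, 261 and 198 CPM, and the non-injected libraries 284, 299, 256 and 669. Non-injected replicate 6 stood far above all others, and the 4 AAV-miR SOD1 libraries lay below all 4 non-injected libraries, a separation that 5.81% of all genes showed in that direction. The log2 fold change against non-injected was -0.92 (SE 0.31, edgeR unadjusted p = 0.00967, adjusted p = 0.147), and without non-injected replicate 6 it was -0.50. The difference from AAV-miR ctrl was -0.26 (SE 0.29). AAV-miR ctrl also lay below non-injected, by a log2 fold change of -0.66 (edgeR unadjusted p = 0.0384, adjusted p = 1.00), which became -0.23 without that library. Relative to both it was -0.59 (SE 0.27, edgeR adjusted p = 0.211), and -0.38 without it.

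In that library, the added list of slow skeletal muscle markers (Myh7, Tnni1, Tnnt1, Myl2, Myl3), written after the values were seen, summed to 2196 CPM. The range over all libraries was 174 to 3415 CPM, so the library was not the highest. Across the 13 libraries Atp2a2 and the fast muscle markers had r = 0.60 (permutation p = 0.0381, adjusted 0.122) and rho = 0.61 (permutation p = 0.0292, adjusted 0.0933). Without the 2 libraries farthest from the median muscle level r was 0.33, and within the 9 libraries numbered 1 to 4 it was 0.88. Non-injected replicate 6 was in the first of these sets and not in the second. Which libraries the relation rested on was not tested. The nearest profiles to that of Atp2a2 were those of Kif1b, a kinesin motor, with a root mean square difference of 0.434, and Adra1a, an adrenergic receptor, with 0.435. Exon bases of Atp2a2 are shared with Gm43361 on the opposite strand, and the strand setting of the counting is not given in the sources used here.

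Atp2a1 made up 90.7% to 98.7% of the SERCA signal per kilobase of exon in every library, and Atp2a2 1.03% to 5.28%. Atp2a3, a SERCA known from blood and endothelial cells, held 212, 96.5, 69.5 and 96.3 CPM in AAV-miR SOD1. The AAV-miR ctrl libraries held 142, 69.2, 43.3, 39.6 and 53.9 CPM, and the non-injected libraries 45.3, 49.8, 68.3 and 69.0. Its log2 fold change was 0.90 against both control groups (SE 0.34, edgeR adjusted p = 0.143). The adjusted p was 0.0280 without AAV-miR ctrl replicate 1, the control library with the highest level, where the fold change was 1.12. In that fit 1694 of 17217 genes had an adjusted p under 0.05. Without AAV-miR SOD1 replicate 1, the library with the highest level of all, the fold change was 0.46 (edgeR adjusted p = 0.580). Atp2a1 had a log2 fold change of -0.57 (SE 0.55, edgeR adjusted p = 0.586), with its level moving with muscle as given above.

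Atp2b1 (ENSMUSG00000019943, chr10:98914406-99026143, plus strand) encodes PMCA1, the widely expressed calcium pump of the cell surface. The AAV-miR SOD1 libraries held 93.1, 128, 93.7 and 88.7 CPM. AAV-miR ctrl replicates 1, 3, 4, 5 and 6 held 111, 105, 126, 167 and 161 CPM, and non-injected replicates 2, 3, 5 and 6 held 113, 166, 145 and 158. Among AAV-miR SOD1 libraries, 3 of 4 lay below all control libraries, and replicate 2 lay inside the control range. Atp2b1 was 1.38-fold lower than in both control groups (log2 fold change -0.47, SE 0.18, edgeR unadjusted p = 0.0225, adjusted p = 0.156). Against AAV-miR ctrl the log2 fold change was -0.41 (SE 0.20, edgeR adjusted p = 0.366), and against non-injected -0.53 (SE 0.21, edgeR adjusted p = 0.182). Over all alternatives it ran from -0.59 to -0.30 against both control groups, and from -0.54 to -0.16 against AAV-miR ctrl. Against non-injected it ran from -0.64 to -0.32. On leaving out any 1 library it rose at most to -0.37, -0.31 and -0.43, in the same order. The ends nearer to 0 came from other alternatives.

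Atp2b2 (ENSMUSG00000030302, chr6:113743831-114042613, minus strand) encodes PMCA2, a fast pump found mainly in neurons and hair cells. Its level was 77.0, 117, 75.2 and 143 CPM in AAV-miR SOD1. The AAV-miR ctrl libraries held 112, 161, 155, 185 and 176 CPM, and the non-injected libraries 139, 237, 144 and 113. Replicates 1 and 3 of AAV-miR SOD1, which were also the lowest for Calb2, lay below every control library, and the other two lay inside the control range. Atp2b2 was 1.53-fold lower than in both control groups (log2 fold change -0.61, SE 0.24, edgeR unadjusted p = 0.0227, adjusted p = 0.156). The log2 fold change was -0.61 against AAV-miR ctrl (SE 0.26, edgeR adjusted p = 0.317) and -0.62 against non-injected (SE 0.27, edgeR adjusted p = 0.219). Against non-injected it was -0.28 without both libraries whose headers disagree.

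Both pumps followed the motoneuron markers across libraries. For Atp2b1, r was 0.93 (permutation p = 2e-05, adjusted 0.00016) and rho 0.92 (permutation p = 4e-05, adjusted 0.00032), with r = 0.90 without the 2 libraries farthest from the median marker level and 0.89 within the 9 libraries numbered 1 to 4. For Atp2b2, r was 0.77 (permutation p = 0.00191, adjusted 0.00764) and rho 0.78 (permutation p = 0.0025, adjusted 0.01), with r = 0.64 without those 2 libraries and 0.89 within the 9. Per 100 CPM of motoneuron markers, Atp2b1 stood at 4.49 to 6.81 CPM in AAV-miR SOD1, 3.68 to 5.56 in AAV-miR ctrl and 3.15 to 5.09 in non-injected. Atp2b2 stood at 4.69 to 7.25, 4.08 to 6.81 and 3.05 to 6.26 CPM in the same order. On this scale the groups overlapped for both pumps, and the lowest AAV-miR SOD1 library lay above the lowest library of either control group. The profile of Atp2b1 was most like those of App, the amyloid precursor protein (0.257), and Kif21a, a kinesin motor (0.259). That of Atp2b2 was most like those of Mif, a cytokine (0.259), and Sncb, beta-synuclein (0.263).

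Atp2b3 (ENSMUSG00000031376, chrX:73503086-73571005, plus strand) encodes PMCA3, the other PMCA largely restricted to neurons. AAV-miR SOD1 replicates held 5.16, 5.90, 4.74 and 4.93 CPM, AAV-miR ctrl replicates 6.14, 5.73, 5.85, 5.68 and 6.43, and non-injected replicates 8.95, 10.6, 5.69 and 5.25. By the titles, injected mice had a narrow range, and the spread of the non-injected group came from its replicates 2 and 3. The column header of that replicate 3 names an AAV-miR ctrl sample, so the narrow range depends on the titles. With the header exchange, the log2 fold change of AAV-miR ctrl against non-injected went from -0.35 to 0.12. Atp2b3 differed by a log2 fold change of -0.38 from both control groups (SE 0.23, edgeR adjusted p = 0.364), -0.20 from AAV-miR ctrl and -0.55 from non-injected. Its relation to the motoneuron markers had r = 0.45 (permutation p = 0.125, adjusted 0.333) and rho = 0.47 (permutation p = 0.106, adjusted 0.281), and r was 0.23 without the 2 libraries farthest from the median marker level. In the 9 libraries numbered 1 to 4 r was 0.82, and around the group means it was 0.07. The nearest profiles were those of Sptbn1, a spectrin (0.463), and Gria2, an AMPA receptor subunit (0.466).

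Among the PMCA genes, the fold change of Atp2b4 had the opposite sign to those of the others. Atp2b4, the PMCA4 gene, held 28.4, 40.2, 22.4 and 19.5 CPM in AAV-miR SOD1. The AAV-miR ctrl libraries held 17.9, 21.8, 16.1, 20.3 and 24.4 CPM, and the non-injected libraries 28.2, 18.9, 25.3 and 11.5. Its log2 fold change against both control groups was 0.43 (SE 0.24, edgeR adjusted p = 0.325), which did not pass the test. As a share of the 4 PMCA genes per kilobase of exon, Atp2b4 made up 8.03% to 14.9% in AAV-miR SOD1 libraries and 4.39% to 10.2% in control libraries. Atp2b2 made up 39.1% to 57.4% of that sum and Atp2b1 29.4% to 48.7% over all 13 libraries, and Atp2b3 4.14% to 8.21%. The difference between the shares was not tested.

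Slc8a1 (ENSMUSG00000054640, chr17:81373105-81738377, minus strand) encodes the exchanger NCX1, abundant in heart. Its counts were low, 9 to 85 reads per library. AAV-miR SOD1 replicates 1 to 4 held 1.69, 0.720, 1.66 and 0.632 CPM, AAV-miR ctrl replicates 1.06, 0.964, 1.42, 1.79 and 1.05, and non-injected replicates 1.34, 0.512, 2.12 and 2.0. The ranges of the groups overlapped. The log2 fold change against both control groups was -0.22 (SE 0.45, edgeR adjusted p = 0.820), and it was 0.20 in the libraries numbered 1 to 4. Exon bases of Slc8a1 are shared with Gm11096 on the opposite strand. Its nearest profiles were those of Mgme1 (0.445) and C1qtnf3 (0.550).

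Slc8a2 (ENSMUSG00000030376, chr7:16129826-16161063, plus strand) encodes NCX2, an exchanger known from brain. It was close to absent from the counts and did not pass the low-count filter. The raw counts were 7, 2, 1 and 2 in AAV-miR SOD1, 0, 0, 1, 0 and 0 in AAV-miR ctrl and 0, 0, 0 and 0 in non-injected. All 4 AAV-miR SOD1 libraries therefore had a read and 1 of 9 control libraries did, but 3 of the 4 lay at or under 3 counts. A count of 0 allows up to 0.0802 to 0.171 CPM in the non-injected libraries, by 3 counts of their total without TMM scaling. These limits cover counting error only. AAV-miR SOD1 libraries had a count for 22317 to 23275 genes, beside 21672 to 23103 in AAV-miR ctrl and 21444 to 22752 in non-injected. Without the filter, edgeR gave Slc8a2 an unadjusted p of 0.00294 and an adjusted p of 0.131 in the comparison with both control groups. In that fit 3169 of 31373 genes were higher and 2017 lower at an unadjusted p under 0.05. No fold is given against groups at this floor.

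The exchanger signal came almost wholly from Slc8a3, the NCX3 gene, which was not among the 9. Slc8a3 made up 94.8% to 99.4% of the NCX signal per kilobase of exon in every library. It held 14.5, 22.5, 16.4 and 15.7 CPM in AAV-miR SOD1. The AAV-miR ctrl libraries held 22.4, 12.2, 10.3, 28.9 and 23.4 CPM, and the non-injected libraries 15.2, 26.0, 25.5 and 26.0. Against both control groups the log2 fold change was -0.30 (SE 0.27, edgeR adjusted p = 0.563), within the spread of AAV-miR ctrl.

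**Figure D4:**
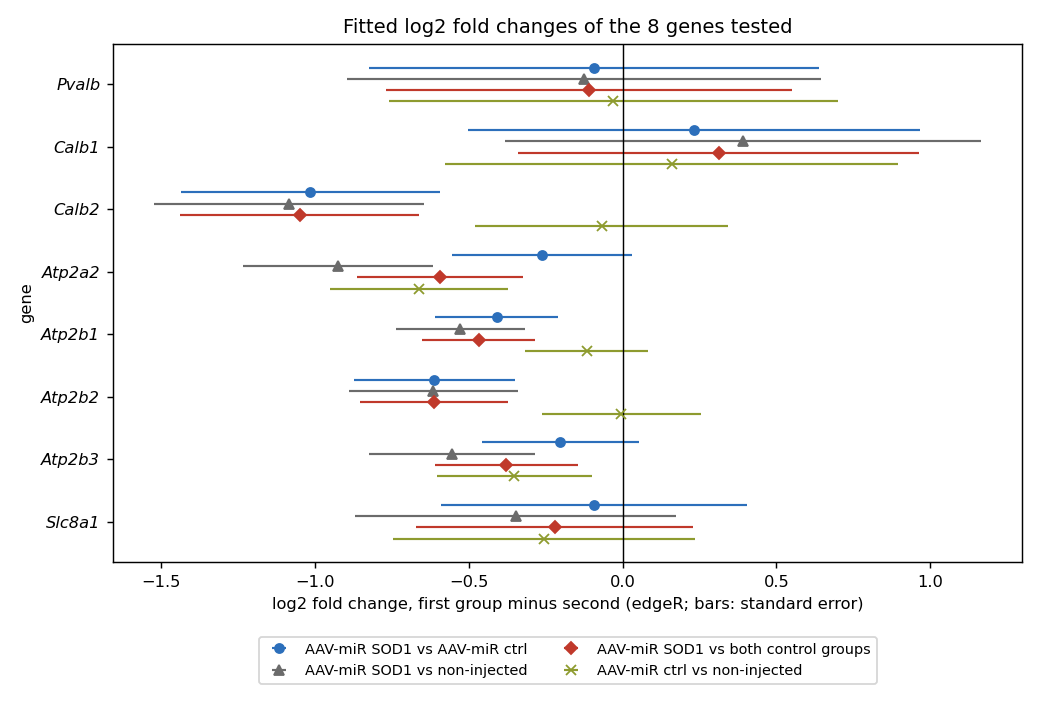
Fitted log2 fold change of the 8 genes tested (x axis, first group minus second) with its standard error as a bar, for the 4 comparisons given by the symbols. Calb2, Atp2b1 and Atp2b2 lie below 0 in the 3 comparisons with AAV-miR SOD1 and near 0 between the control groups, while Atp2a2 also lies below 0 between the control groups, at -0.66. Groups follow the titles. With the header exchange, not drawn, Calb2, Atp2b1 and Atp2b2 were at 0.48, 0.17 and 0.31 between the control groups.

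The 4 lists of other calcium-handling genes were read in the same fit: buffers and sensors (20 genes), plasma membrane partners (7), the endoplasmic reticulum and Golgi store (16) and mitochondrial uptake and release (12). Of their 55 genes 51 passed the low-count filter, and none had an adjusted p under 0.05 by edgeR in any comparison. In AAV-miR SOD1 relative to both control groups, 9 of 51 were lower and 3 of 51 higher at an unadjusted p under 0.05, where 12.1% of all genes were lower and 10.2% higher. The median log2 fold change was -0.22 beside -0.06 for all genes. Buffers and sensors had 3 of 19 lower and 1 of 19 higher at that p, with a median of -0.33. Plasma membrane partners had 2 of 5 lower with a median of -0.38, and mitochondrial genes had 3 of 12 lower and 1 of 12 higher with a median of -0.29. The store genes were near the middle of all genes, with 1 of 15 lower, 1 of 15 higher and a median of -0.08.

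The 6 genes of these lists with the smallest p in the comparison with both control groups are given by rule. Ncs1, the neuronal calcium sensor NCS-1, held 18.5, 27.4, 16.3 and 34.8 CPM in AAV-miR SOD1, 31.2 to 60.6 CPM in AAV-miR ctrl and 29.8 to 66.4 CPM in non-injected, so only AAV-miR SOD1 replicate 4 reached into the ranges of the controls. Its log2 fold change was -0.94 (SE 0.27, edgeR adjusted p = 0.101). DESeq2 gave an adjusted p of 0.0244, limma-voom with quality weights 0.0410, and edgeR without AAV-miR ctrl replicate 1 gave 0.0355. In this comparison these settings called 1425 of 31228, 1461 of 17403 and 1694 of 17217 genes, in the same order. Necab3, an EF-hand calcium-binding protein of neurons, had a log2 fold change of -1.03 (SE 0.34, edgeR adjusted p = 0.114), with adjusted p of 0.0427 in DESeq2 and 0.0443 in edgeR without AAV-miR ctrl replicate 1. Nptn, neuroplastin, an accessory subunit of PMCA pumps, had -0.56 (SE 0.19, edgeR adjusted p = 0.126).

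Slc24a2, a potassium-dependent sodium-calcium exchanger of neurons, had a log2 fold change of -0.58 (SE 0.22, edgeR adjusted p = 0.139). Micu3, a neuronal regulator of the mitochondrial calcium uniporter, had -0.50 (SE 0.19, edgeR adjusted p = 0.141). Itpr2, an inositol trisphosphate receptor that releases calcium from the store, was the one with a higher level. It held 25.8 to 34.3 CPM in AAV-miR SOD1, 14.7 to 28.6 CPM in AAV-miR ctrl and 9.34 to 27.9 CPM in non-injected, with a log2 fold change of 0.70 (SE 0.26, edgeR adjusted p = 0.137). Limma-voom with quality weights gave it an adjusted p of 0.0467, in a fit that called 1461 of 17403 genes. Each of these 6 genes had 4 of 4 AAV-miR SOD1 libraries on one side of the control median. The genes were picked by their p in these same libraries, so this position adds no support.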

How the data were processed

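RNA from 500 laser-captured motoneurons per mouse was amplified with a SMARTer kit and made into Nextera XT libraries, per the labels' protocols. The authors deposited raw counts per Ensembl gene for 13 libraries. The submitters' processing notes name cutadapt 1.8, STAR 2.5.2b, HTSeq 0.6.1 and the build GRCm38, without their roles; the annotation release and strand setting are not given in the sources used here. The 5 summary rows stayed out of library sizes; reads aligned to several places came to 42.3% to 56.8% of the table total. Without strand, reads of overlapping genes on opposite strands cannot be told apart.

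GENCODE M21 named 48349 of 48709 rows and gave coordinates and exon lengths. Groups came from the titles. Counts were fitted in R 4.3.3 with edgeR 4.0.16 (filterByExpr with a minimum count of 10 and a minimum total of 15, TMM, glmQLFTest) on all 13 libraries with 3 groups; edgeR's common coefficient of variation came to 0.470, and 10 residual degrees of freedom were left. The SE is the log2 fold change over the root of F. Levels are CPM on TMM-scaled library sizes, with a prior count of 2 on the log2 scale. Benjamini-Hochberg adjustment ran over 17403 genes at 0.05. DESeq2 1.42.0, limma 3.58.1, 2 other scalings, no filter, a replicate block, a header exchange, the libraries numbered 1 to 4 and leaving out each library were alternatives.

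Named genes are the 9, 4 family members, and the 6 list genes with the smallest p against both control groups. The genes, lists and rules were chosen with earlier results of these data known. With 1 library per mouse, p-values measure the spread between mice of this experiment. A depth of 13.9 to 37.4 megacounts lets 3 counts show 0.0802 to 0.216 CPM, on totals without TMM scaling.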

Additional observations from a re-analysis of the deposited data

Results flagged for a closer look

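A total of 3 values stood apart within their group by Dixon's criterion, out of 75 groups of 4 or 5 libraries examined over the genes and marker lists. Chance alone finds about 1 in 20 such groups, or 3.75 of 75. Atp2a2 in non-injected replicate 6 had a log2 CPM of 9.386, against 8.226 in the next library of the group. Atp2b1 in AAV-miR SOD1 replicate 2 had a log2 CPM of 7.003, against 6.552 in the next, and this library was the one of its group inside the control range. Slc8a3 in non-injected replicate 2 had a log2 CPM of 3.932, against 4.675 in the next higher library.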

How the results depend on the processing

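Over 42 log2 fold changes and 22 alternatives (924 values), 861 kept their direction and their side of the adjusted threshold, 7 passed it and 56 changed sign, 29 of these on leaving out 1 library. Genes called at an adjusted p under 0.05 rose from 0 under edgeR to 146 with DESeq2 when AAV-miR SOD1 was set against AAV-miR ctrl. With DESeq2 they were 924 when it was set against non-injected, 1425 for the controls combined, and 3 for the vector control relative to no injection. Against both they were 1461 with limma-voom, 1 without the filter, and 0 to 1694 on leaving out 1 library (1694 without AAV-miR ctrl replicate 1, 121 without AAV-miR SOD1 replicate 3). None of the 9 genes was called under any alternative; the cause of the other differences was not tested.

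Genes of the 8 with an unadjusted p under 0.05 numbered 2 against AAV-miR ctrl (0 with the replicate block, 0 in the libraries numbered 1 to 4, 0 to 3 leaving out 1 library). Against non-injected they numbered 4 (0 with the block, 1 with the header exchange, 2 in numbers 1 to 4, 1 without both libraries whose headers disagree, 1 to 4 leaving out 1). Against both control groups they numbered 4 (0 with the block, 1 in numbers 1 to 4, 2 without both header libraries, 0 to 4 leaving out 1). For AAV-miR ctrl against non-injected 1 became 0 with upper quartile scaling, limma-voom, the block and the header exchange, and 0 to 1 leaving out 1.

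Replicate numbers were not taken as pairs in the main fit. Deviations from the group means correlated from -0.189 to 0.243 in 8 same-number pairs, with a median of 0.0226. In 48 pairs of different numbers they correlated from -0.385 to 0.342, with a median of -0.00665. The fold changes that changed sign follow. For AAV-miR SOD1 against AAV-miR ctrl, Pvalb became 0.23 with the header exchange and 0.37 without both header libraries (-0.82 to 0.37 leaving out 1 library), Calb1 -0.10 in numbers 1 to 4 (-0.029 to 0.83), and Slc8a1 0.18 with the block, 0.011 with the exchange and 0.047 in numbers 1 to 4 (-0.32 to 0.11). Against non-injected, Slc8a1 became 0.35 in numbers 1 to 4, and Pvalb ran from -0.85 to 0.44 leaving out 1. Against both, Pvalb became 0.14 without both header libraries (-0.83 to 0.26 leaving out 1), Slc8a1 0.064 with the block and 0.20 in numbers 1 to 4, and Slc8a3 0.048 with the block.

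For AAV-miR ctrl against non-injected, Pvalb became 0.35 with limma-voom (-0.45 to 0.48 leaving out 1). Calb1 became -0.57 with the exchange and -0.25 without both header libraries (-0.44 to 0.68), Calb2 0.48 and 0.28 (-0.30 to 0.12), and Atp2b1 0.17 and 0.047. Atp2b2 became 0.0082 with RLE size factors, 0.023 with upper quartile scaling, 0.0098 with DESeq2, 0.13 with limma-voom, 0.066 with the block, 0.31 with the exchange and 0.27 without both header libraries (-0.14 to 0.26). Atp2b3 became 0.12 with the exchange and Slc8a1 0.31 in numbers 1 to 4. The alternative without both header libraries was chosen after seeing the data. Slc8a1 and Slc8a2 had at most 85 and 7 reads in a library.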
